A study of Homo sapiens with 6 samples.

Results

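The 10 genes described here encode proteins of contractile actin filaments: ACTA2, CNN1, TAGLN, MYL9, SMTN, CNN2, TPM1, TPM2, CALD1 and VCL. They were taken by symbol, and all 10 were among the 20683 genes of the count tables. Their transcripts were counted in HT-1080, an established line of human fibrosarcoma cells, with 3 libraries per group that the series calls biological replicates. The inhibitor group had been exposed for 24 h to SLV-8472-01, an inhibitor of IRAK4, the kinase that carries Toll-like and interleukin-1 receptor signals inside the cell. The label gives its concentration as 5 mM, and whether that unit is right could not be determined. The DMSO group had received 0.1% DMSO for 24 h. All 6 libraries came from this 1 line, seeded in medium with serum. The comparison asked whether contractile and stress fibre transcripts differ after 24 h with the inhibitor, and whether those typical of smooth muscle differ otherwise than those of stress fibres in general.

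Serum response factor (SRF) binds CArG boxes, short stretches of A and T flanked by CC and GG, in the control regions of many actin cytoskeleton genes. Its partners MRTF-A and MRTF-B, encoded by MKL1 and MKL2, are held in the cytoplasm by monomeric actin. They enter the nucleus when actin is driven into filaments, and SRF with MRTF then activates genes of the filaments themselves. In smooth muscle and in activated fibroblasts this programme raises ACTA2, TAGLN and CNN1, whereas tropomyosins, caldesmon and vinculin are made in most adherent cells. For this description ACTA2, CNN1, TAGLN, MYL9 and SMTN were treated as the smooth-muscle-type genes and CNN2, TPM1, TPM2, CALD1 and VCL as the general stress fibre genes.

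CArG boxes were looked for in RefSeq promoter windows (build GRCh38.p14), each running from 250 bases before to 50 bases after a transcript start. Windows were found for 8 of the 10 genes, 16 windows in all, the exceptions being TAGLN and MYL9. An exact CArG box, a pattern that finds the same sites on both strands, stood in 1 window each of SMTN and CNN2, that is in 2 of the 8 genes, against 1.6% of 27305 genes and 1.29% of 35116 windows in the whole table. Counting boxes with at most 1 mismatch, 4 of the 8 genes had one (ACTA2, SMTN, CNN2 and CALD1), against 22.3% of all genes and 18.9% of all windows. The second ACTA2 window held 2 of these. A gene with more windows has more room for a match, and the 8 genes had 16 windows, against 35116 for 27305 genes. The genes had also been picked as a contractile and SRF-MRTF set, so these shares were not tested. The 250 bases before the start are shown for 3 windows, 1 each of SMTN, CNN2 and ACTA2. Inhibitor and DMSO values overlapped for SMTN. They did not for CNN2 and ACTA2, nor for CALD1, which is not shown, and 25.5% of all tested genes did not overlap. A link between the motif and this was not tested. Capitals mark the exact CArG box in SMTN and CNN2 and the boxes with 1 mismatch in ACTA2. The windows lie at chr22:31084746-31084995 on the plus strand (SMTN), chr19:1026358-1026607 on the plus strand (CNN2) and chr10:88952774-88953023 on the minus strand (ACTA2).
SMTN: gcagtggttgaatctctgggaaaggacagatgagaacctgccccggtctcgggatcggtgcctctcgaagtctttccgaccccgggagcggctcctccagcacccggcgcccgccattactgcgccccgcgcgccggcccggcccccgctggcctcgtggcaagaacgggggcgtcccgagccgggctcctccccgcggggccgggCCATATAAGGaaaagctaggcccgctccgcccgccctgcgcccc
CNN2: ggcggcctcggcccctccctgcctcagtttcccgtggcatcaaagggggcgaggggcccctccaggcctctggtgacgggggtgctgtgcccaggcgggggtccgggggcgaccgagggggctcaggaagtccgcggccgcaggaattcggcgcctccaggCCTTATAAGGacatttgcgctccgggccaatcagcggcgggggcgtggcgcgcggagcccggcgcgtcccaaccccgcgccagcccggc
ACTA2: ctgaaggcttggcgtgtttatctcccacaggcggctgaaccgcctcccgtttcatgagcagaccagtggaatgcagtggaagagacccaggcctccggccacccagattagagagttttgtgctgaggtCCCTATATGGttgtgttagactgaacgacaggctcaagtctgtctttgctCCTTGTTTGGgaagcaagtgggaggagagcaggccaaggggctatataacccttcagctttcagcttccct
In the SMTN window the box CCATATAAGG spans bases -44 to -35 from the start, and in CNN2 the box CCTTATAAGG spans -89 to -80. In ACTA2 the boxes CCCTATATGG and CCTTGTTTGG span -121 to -112 and -71 to -62. The first promoter window of SRF, which is known to control its own gene, held 2 exact boxes, CCATATAAGG and CCATAAAAGG. A match is only a run of letters, and no binding was measured here.

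Libraries held 9162281 to 13184553 counts, and 11216 genes passed the filter on low counts. The third DMSO library (DMSO 3) stood apart from the other DMSO libraries. Its median absolute log2 difference was 0.317 from DMSO 1 and 0.248 from DMSO 2, against 0.156 between those libraries and 0.122 to 0.130 among the inhibitor libraries. From the inhibitor libraries it lay 0.240 to 0.248 away, and DMSO 1 lay 0.243 to 0.273 away. Across 9215 genes, which do not vary independently, its deviation from the DMSO mean had a Spearman correlation of -0.463 with transcript GC content. For DMSO 1 it was 0.505, and the deviations of a group sum to 0. Log2 fold changes are therefore also given without DMSO 3. Levels are given as CPM, counts scaled to a common library size by the trimmed mean of M values (TMM). Each gene is read through its own PCR product, so levels are compared between libraries and not between genes.

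None of the 9 tested genes of the set passed the quasi-likelihood test of edgeR (p adjusted by Benjamini-Hochberg, threshold 0.05) in either direction, against 3.87% of all tested genes. Without an adjustment 3 of the 9 had p under 0.05 (33.3%, against 19.5% of all tested genes): ACTA2, TAGLN and VCL. ACTA2 was lower with the inhibitor, TAGLN and VCL were higher, and the other 6 differed by at most 0.18 on the log2 scale. DESeq2 and limma-voom also called none of the 9, against 5.3% and 3.96% of all tested genes. The 95% intervals of the 9 log2 fold changes, not adjusted for the number of genes, all lay between -0.71 and 0.89. The values of inhibitor and DMSO libraries did not overlap in 4 of the 9 genes (44.4%), against 25.5% of all tested genes. The inhibitor libraries were higher in 1 of these, TAGLN, and lower in 3, ACTA2, CNN2 and CALD1, against 13.7% and 11.8% of all tested genes.

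**Figure D1:**
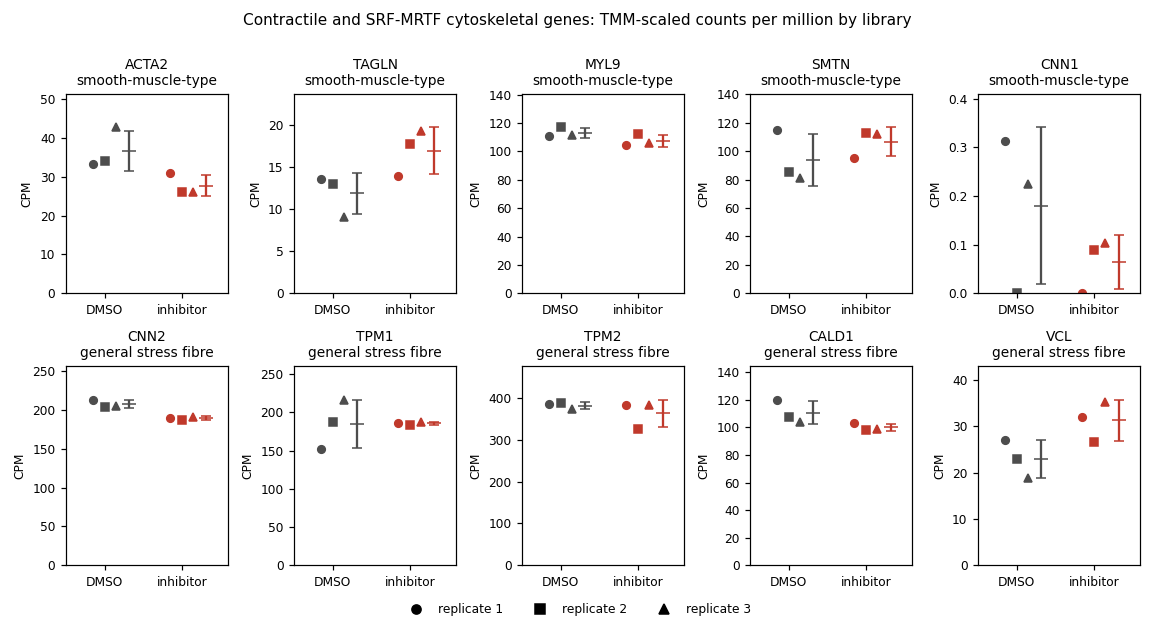
TMM-scaled CPM (y axis, from 0, a separate scale for each gene) of the 10 genes in the 3 DMSO (grey) and 3 inhibitor (red) libraries, marked by replicate number, with the mean and SD of each group beside the points. ACTA2 is lower and TAGLN higher in all 3 inhibitor libraries, with the DMSO 3 triangle farthest from the inhibitor values in both, and CNN1 is near 0 throughout.

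ACTA2 encodes smooth muscle alpha-actin, the actin that defines contractile smooth muscle and myofibroblasts. It had 31.0, 26.1 and 26.1 CPM in inhibitor 1 to 3 and 33.2, 34.1 and 42.7 CPM in DMSO 1 to 3. All inhibitor values were below all DMSO values, and DMSO 3 was the highest of the 6. The group means were 27.7 ± 2.8 and 36.7 ± 5.21 CPM (SD, n = 3), a log2 fold change of -0.40 (SE 0.144, 95% interval -0.71 to -0.09, edgeR adjusted p = 0.141). Without DMSO 3 it was -0.29 (SE 0.124, edgeR adjusted p = 0.0882). ACTA2 shares exonic sequence on the opposite strand with FAS and ACTA2-AS1 in the GENCODE annotation, and no source used here says whether counting used the strand.

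TAGLN encodes transgelin (SM22-alpha), an actin cross-linking protein of the calponin family that appears early in smooth muscle differentiation. Its levels were 13.9, 17.7 and 19.2 CPM in the inhibitor libraries and 13.5, 12.9 and 9.12 CPM in the DMSO libraries. The groups did not overlap, although inhibitor 1 and DMSO 1 were almost level, and DMSO 3 was the lowest of the 6. The log2 fold change was 0.50 (SE 0.184, 95% interval 0.10 to 0.89, edgeR adjusted p = 0.147), from 11.9 ± 2.39 to 17.0 ± 2.76 CPM (SD, n = 3). Without DMSO 3 it was 0.34 (edgeR adjusted p = 0.119). PCSK7 overlaps TAGLN on the opposite strand.

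The estimates for these 2 genes of the smooth-muscle type lay on opposite sides of 0. The log2 CPM of ACTA2 minus that of TAGLN, which is read only between libraries, was 1.15, 0.55 and 0.44 in inhibitor 1 to 3 and 1.29, 1.39 and 2.20 in DMSO 1 to 3. This difference was smaller in every inhibitor library than in any DMSO library, and highest in DMSO 3. Both features follow from the values of the 2 genes given above, so the difference adds nothing to them. This pair was chosen after its values were seen, so it was not tested.

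MYL9 encodes the regulatory light chain whose phosphorylation switches on smooth muscle and non-muscle myosin. It had 104.4, 112.0 and 105.7 CPM with the inhibitor and 110.6, 116.9 and 111.6 CPM with DMSO. The groups overlapped, and DMSO 3 lay between the other DMSO libraries. Its log2 fold change of -0.07 had a 95% interval of -0.32 to 0.17 (edgeR adjusted p = 0.779), and was -0.10 without DMSO 3.

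SMTN encodes smoothelin, a protein bound to actin filaments in contractile smooth muscle. It had 95, 112.5 and 112.4 CPM in the inhibitor libraries against 115.0, 85.5 and 81.1 CPM in the DMSO libraries. DMSO 1 was the highest and DMSO 3 the lowest of all 6, so the DMSO libraries enclosed the inhibitor libraries. The log2 fold change was 0.18 (SE 0.148, edgeR adjusted p = 0.545), and it moved to 0.07 without DMSO 3 and to 0.35 without DMSO 1.

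CNN1, the gene of basic calponin and a marker of mature smooth muscle, had almost no counts. It had 0, 1 and 1 counts in the inhibitor libraries and 4, 0 and 2 counts in the DMSO libraries, too few to be tested. The ratio of inhibitor to DMSO, scaled by library size, was 0.351 with an exact 95% interval of 0.0346 to 1.96 that covers counting error only, and a difference could not be detected at this depth. Reads of 1 PCR product without molecular identifiers need not be independent molecules.

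CNN2 encodes the calponin of non-muscle cells. It had 189.9, 187.0 and 191.3 CPM with the inhibitor and 213.2, 203.4 and 205.0 CPM with DMSO. The groups did not overlap and the replicates lay close together, with a coefficient of variation of 1.15% in the inhibitor and 2.53% in the DMSO libraries. The difference was nevertheless small, with a log2 fold change of -0.13 (SE 0.109, 95% interval -0.36 to 0.11, edgeR adjusted p = 0.567), or -0.15 without DMSO 3.

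Of the tropomyosins, which lie along actin filaments and govern access of myosin, TPM1 had 186.1, 184.1 and 187.2 CPM in the inhibitor and 151.9, 187.0 and 215.7 CPM in the DMSO libraries. The inhibitor values sat inside the wide DMSO range, whose ends were DMSO 1 and DMSO 3. Its log2 fold change was 0.01 (95% interval -0.28 to 0.30), turned to -0.12 without DMSO 1 and was 0.12 without DMSO 3, and it was negative under 5 further settings, with an adjusted p of at least 0.444 under every setting tried. TPM2 had 381.8, 324.7 and 381.6 CPM with the inhibitor against 384.3, 387.3 and 372.7 CPM with DMSO. Only inhibitor 2 was clearly below the rest, and the log2 fold change of -0.07 (95% interval -0.32 to 0.17, edgeR adjusted p = 0.781) became 0.00035 without it and -0.10 without DMSO 3.

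CALD1 encodes caldesmon, which restrains actomyosin on stress fibres and in smooth muscle. It had 102.8, 98.1 and 99.0 CPM in the inhibitor libraries and 120.1, 107.7 and 104.2 CPM in the DMSO libraries. The groups did not overlap, with inhibitor 1 and DMSO 3 close to each other. The log2 fold change was -0.15 (SE 0.118, 95% interval -0.40 to 0.11, edgeR adjusted p = 0.539), or -0.20 without DMSO 3 (edgeR adjusted p = 0.153) and -0.09 without DMSO 1.

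VCL encodes vinculin, which ties actin filaments to integrin adhesions and cell junctions. It had 32.1, 26.6 and 35.4 CPM with the inhibitor and 27.0, 22.9 and 18.9 CPM with DMSO. Inhibitor 2 and DMSO 1 overlapped, and DMSO 3 was the lowest. The log2 fold change was 0.44 (SE 0.161, 95% interval 0.10 to 0.79, edgeR adjusted p = 0.141), the largest of the general stress fibre genes, and 0.31 without DMSO 3 (edgeR adjusted p = 0.0934). AP3M1 overlaps VCL on the opposite strand. Such overlaps were not particular to ACTA2, TAGLN and VCL. SMTN overlaps AC005005.4 on the same strand and AC005005.3 on the opposite strand. CNN2 overlaps AC011558.1, and TPM1 overlaps AC079328.2 and TPM1-AS, all on the opposite strand. Whether any PCR product lies in an overlap was not examined.

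The 3 genes with the widest differences were also far from the rest of their group in DMSO 3. Against the mean of DMSO 1 and DMSO 2, on the log2 CPM scale, DMSO 3 was 0.34 higher for ACTA2, 0.53 lower for TAGLN and 0.39 lower for VCL. It was also 0.36 higher for TPM1 and 0.29 lower for SMTN, and within 0.13 for the other 4. Transcript GC content was 51.8% for ACTA2, 57.2% for TAGLN and 45.1% for VCL. GC content of the PCR products was not known here, and the correction that follows does not use it. With the GC trend of each library removed, the log2 fold changes were -0.40, 0.53 and 0.41 (edgeR adjusted p = 0.107, 0.0674 and 0.152), close to those without the correction, and none of the 9 passed, either higher or lower, against 3.16% and 3.07% of all genes tested in that way (6.24% together). The unadjusted p stayed under 0.05 for these 3 of the 9 (33.3%, against 22.3% of all genes tested in that way). When libraries were weighted by quality in limma-voom, which gave DMSO 3 a weight of 0.264 and DMSO 2 a weight of 2.39, ACTA2 (-0.31, adjusted p = 0.0453), TAGLN (0.38, adjusted p = 0.0482) and VCL (0.41, adjusted p = 0.0162) passed. These are 2 of 9 genes higher and 1 lower, against 12.4% and 10.9% of all tested genes with those weights (23.2% together). Without DMSO 3, none of the 9 passed edgeR, against 21.9% of all tested genes, and 3 had an unadjusted p under 0.05 (33.3%, against 34.7%). The part of DMSO 3 in these differences was measured only by leaving it out or weighting it down.

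**Figure D2:**
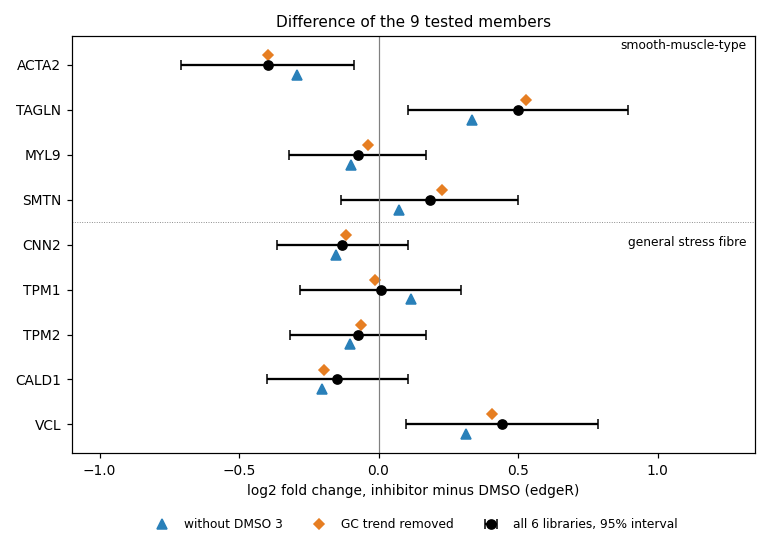
Log2 fold change, inhibitor minus DMSO (x axis), of the 9 tested genes by edgeR (black, with the 95% interval), without DMSO 3 (blue triangles) and with the GC trend of each library removed (orange diamonds), with the smooth-muscle-type genes above the dotted line. ACTA2 at -0.40 and TAGLN at 0.50 lie on opposite sides of 0, VCL is at 0.44, and the intervals of the other 6 include 0.

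No shift common to either class was seen. The 4 tested smooth-muscle-type genes had a median log2 fold change of 0.05, with 2 above and 2 below 0, and the 5 general stress fibre genes had a median of -0.07, with 2 above and 3 below 0. The median of all tested genes was -0.0044. Without DMSO 3 the medians were -0.01 and -0.10. Within each library, and again read only between libraries, the mean log2 CPM of the smooth-muscle-type genes minus that of the general stress fibre genes was -1.56, -1.33 and -1.46 in inhibitor 1 to 3. In DMSO 1 to 3 it was -1.43, -1.49 and -1.54. The group means of this difference, -1.45 ± 0.118 and -1.49 ± 0.0561 (SD, n = 3), were 0.04 apart, less than the spread between replicates.

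Calls were made among the regulators of the programme. Of the 7 tested genes of SRF, its MRTF partners and their cofactors, 1 rose and 1 fell by edgeR (14.3% each, against 1.95% higher and 1.92% lower among all tested genes), with a list median of -0.07. MKL2, the MRTF-B gene, rose from 7.35, 8.6 and 8.67 CPM in the DMSO libraries to 13.5, 14.3 and 14.2 CPM in the inhibitor libraries. These groups were clearly apart (log2 fold change 0.77, SE 0.157, edgeR adjusted p = 0.0137). The call was lost without inhibitor 1, 2 or 3 or DMSO 2 (adjusted p = 0.0703, 0.0987, 0.0716 and 0.0608), while the log2 fold change stayed between 0.69 and 0.81 when any 1 library was left out.

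FHL2, a LIM-domain cofactor that binds SRF and is itself an SRF target, fell from 655.4, 566.9 and 659.9 CPM with DMSO to 421.3, 411.0 and 447.0 CPM with the inhibitor. Every inhibitor library was below every DMSO library (log2 fold change -0.56, SE 0.112, edgeR adjusted p = 0.0132). The call was lost without inhibitor 1, 2 or 3 (adjusted p = 0.105, 0.127 and 0.064), with log2 fold changes between -0.63 and -0.53 when any 1 library was left out. SRF itself had 74.3, 76.2 and 67.4 CPM in the inhibitor and 102.7, 103.5 and 80.3 CPM in the DMSO libraries. The groups did not overlap, and DMSO 3 was nearest to the inhibitor libraries (log2 fold change -0.40, SE 0.133, edgeR adjusted p = 0.115). Without DMSO 3 SRF was at -0.52 and passed (edgeR adjusted p = 0.000447, when 11.1% of all tested genes were called lower), as did CSRP1, a LIM protein of smooth muscle named after its values were seen (-0.28, edgeR adjusted p = 0.0334). With all 6 libraries CSRP1 was at -0.07 (edgeR adjusted p = 0.857) and its groups overlapped. MKL1, the MRTF-A gene, was at 0.14 (SE 0.127, edgeR adjusted p = 0.604) and CSRP2, another LIM protein gene, at 0.18 (SE 0.157, edgeR adjusted p = 0.594), or 0.07 and 0.11 without DMSO 3. MYOCD, the cofactor restricted to smooth and cardiac muscle, had 0 counts in all 6 libraries, as had ABRA, an actin-binding activator of MRTF.

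**Figure D3:**
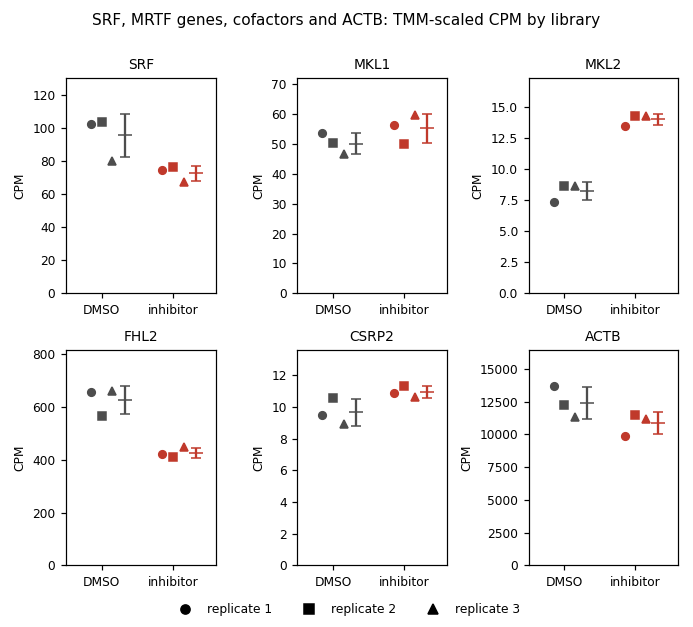
TMM-scaled CPM (y axis, from 0, a separate scale for each gene) of SRF, MKL1, MKL2, FHL2, CSRP2 and ACTB in the 3 DMSO (grey) and 3 inhibitor (red) libraries, marked by replicate number, with group mean and SD beside the points. MKL2 is higher and FHL2 lower in every inhibitor library, the SRF and CSRP2 groups do not overlap, and the MKL1 and ACTB groups do.

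In the list of 26 other actin and stress fibre genes none of the 24 tested passed edgeR, 5 had an unadjusted p under 0.05 (20.8%, against 19.5% of all tested genes), DESeq2 called 1 and limma-voom none. The log2 fold change was below 0 in 19 of the 24 genes (79.2%, against 50.6% of all tested genes), with a median of -0.14. ACTB, the cytoplasmic beta-actin gene, had 9900, 11480 and 11150 CPM with the inhibitor and 13700, 12270 and 11290 CPM with DMSO, and the groups overlapped (log2 fold change -0.20, SE 0.108, edgeR adjusted p = 0.338). FHL1, the gene of a LIM-domain protein counted in only 76 and 54 reads over the inhibitor and DMSO libraries, was at 0.58 (SE 0.363, edgeR adjusted p = 0.404), or 0.29 without DMSO 3. MYL6, a myosin light chain gene that nearly all cells express, had only 3 to 7 counts per library, so a count near 0 on this panel need not mean that a gene is silent.

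Without DMSO 3, 10 of these 24 genes were called lower and none higher (41.7% and 0%, against 11.1% and 10.8% of all tested genes in that fit). Among them were ACTB, ACTG1, ACTN1, ACTN4, MYH9, TGFB1I1, TLN1, WDR1 and ZYX, which encode cytoplasmic actins, actin cross-linkers, non-muscle myosin heavy chain, adhesion proteins and a factor of actin filament disassembly (WDR1), and most are named here after their values were seen. In the same fit 17 of the 24 lay below 0 (70.8%, against 49.9% of all tested genes), and none of the 9 tested contractile genes passed. ACTB was then at -0.28 (edgeR adjusted p = 0.0238). This fit keeps DMSO 1, whose deviation had a correlation of 0.505 with GC content. The genes named above had 49.9% to 64.9% GC. In DMSO 1, ACTB, ACTG1, ACTN4, TGFB1I1, TLN1 and ZYX were 0.13 to 0.31 log2 CPM above DMSO 2. ACTN1, MYH9 and WDR1 were 0.03 to 0.04 below it. For ZYX, DMSO 2 (415.2 CPM) lay below inhibitor 2 (417.6 CPM). The part of DMSO 1 in these calls was not tested. With the GC trend removed and all 6 libraries kept, none of the 24 passed, 6 had an unadjusted p under 0.05 (25%, against 22.3% of all tested genes) and 20 lay below 0 (83.3%, against 51.9%). In bulk RNA a lower level can stand for fewer cells that carry a transcript or for less of it per cell, which cannot be told apart.

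**Figure D4:**
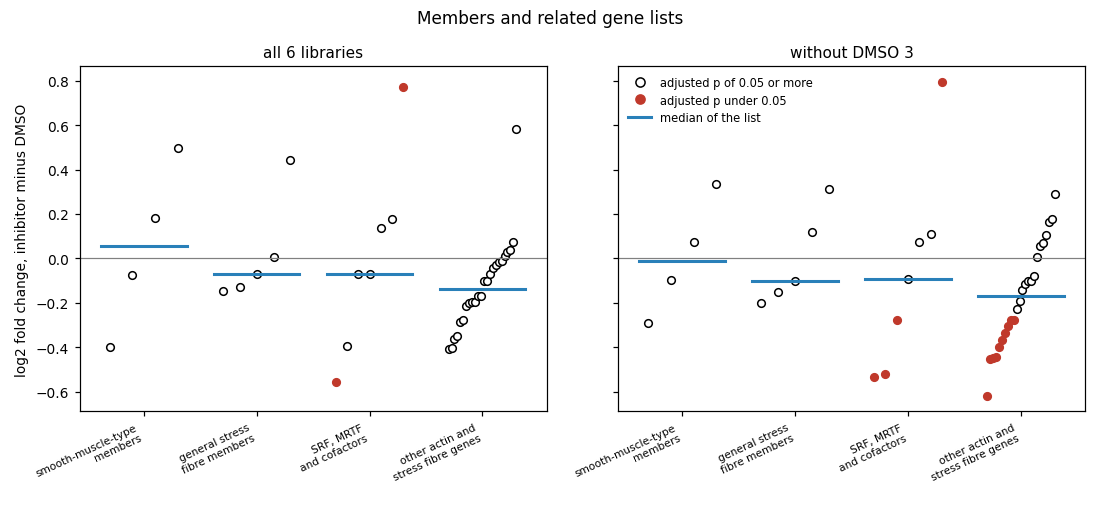
Log2 fold change, inhibitor minus DMSO (y axis), of each tested gene of the contractile set and of the related lists, in order of size within a list, with all 6 libraries (left) and without DMSO 3 (right); filled points passed an adjusted p of 0.05 by edgeR and bars mark list medians. No contractile gene is filled in either panel, while the filled points among the other actin and stress fibre genes go from 0 to 10 without DMSO 3.

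Of the lists of cell type markers, only the mesenchymal one had a high summed level, and most of that was VIM. VIM had a mean of 6221 CPM with the inhibitor and 5839 CPM with DMSO. CD44 had 9.81 and 10.1 CPM, and S100A4 had 2.93 and 3.1 CPM. Each gene has its own PCR product, so the sums rank the lists only roughly. VIM, CD44, S100A4, LGALS1, CDH2 and FN1 summed to 7278 to 7499 CPM in the inhibitor and 6467 to 7905 CPM in the DMSO libraries. None of the 6 was called by edgeR with all libraries, against 3.87% of all tested genes. An unadjusted p under 0.05 was found for 1, FN1 (16.7%, against 19.5% of all tested genes). Without DMSO 3, 1 gene, LGALS1, was called lower (16.7%, against 11.1% of all tested genes). Its log2 fold change was -0.16 with all libraries (edgeR adjusted p = 0.613) and -0.35 without DMSO 3 (edgeR adjusted p = 0.00596). Of 8 markers of mature smooth muscle, 7 had at most 5 counts in every library and LMOD1, KCNMB1 and CASQ2 had 0. The exception was HSPB6, with 40, 44 and 21 counts in the inhibitor libraries and 33, 26 and 15 counts in the DMSO libraries. Its log2 fold change was 0.58 (SE 0.284, edgeR adjusted p = 0.281). The sum of the 8 markers, most of it from HSPB6, ranged from 2.39 to 4.01 CPM with the inhibitor and from 1.8 to 3.05 CPM with DMSO. Of 8 skeletal and cardiac muscle markers, MYOD1, MYOG, CKM and TNNT2 had 0 counts, and the sum was at most 0.989 CPM. The epithelial list was low but did not overlap between groups, at 1.55 to 2.32 CPM with the inhibitor and 0.901 to 1.37 CPM with DMSO. CDH1 was at 0 and most of the counts came from CLDN4, a tight junction gene (log2 fold change 1.09, edgeR adjusted p = 0.115), and its part in the contractile results was not tested. The endothelial and leukocyte lists summed to at most 3.1 and 0.245 CPM in any library, with VWF, PTPRC, CD3E and CD79A at 0. Counts of 7 of the 8 markers of mature smooth muscle were thus at or near 0, and those of HSPB6 were low but not near 0. Counts of CNN1 and MYOCD were also at or near 0, with the limit that MYL6 shows for this panel. The contractile genes are described here by their names and not as a smooth muscle profile.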

How the data were processed

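Per the labels' protocols, parts of the transcripts were amplified by multiplex PCR with a human gene expression panel, and Ion Torrent sequencing followed. The authors deposited 1 table for each library, which lists gene symbols with their raw read count and no normalization. HTSeq, hg19 and DESeq2 1.20.0 stand in the submitters' processing notes without a role, and for the aligner the name was not given in the sources used here.

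Of 20683 genes, 11216 passed filterByExpr (minimum count 10, minimum total 15) and were tested with edgeR 4.0.16 in R 4.3.3 on TMM-scaled counts, with group as the only term. Adjustment ran over all tested genes. The SE follows from the log2 fold change and its F statistic (their ratio after taking the root of F), and the 95% interval uses the test's degrees of freedom. A prior count of 2 entered log2 CPM. The GC trend was a local regression with span 0.5 on the longest GENCODE 29 transcript (99.2% of tested genes matched, all 10 members among them). No stretch of 50 bases in the longest transcript of a member occurred in another gene's transcripts except in SMTN and CNN2 (at most 0.406% of stretches with any 1 gene). The GC values and this check used whole transcripts and not the PCR products.

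Alternatives were DESeq2 size factors, library totals, no filter, only genes with mean counts from 50, limma-voom 3.58.1 with and without quality weights, DESeq2 1.42.0, a replicate block and leaving out each library. Removal of the GC trend was added later. The fits were checked on simulated counts. Members, lists and alternatives were chosen with earlier results of these data known. Named outside the members were SRF, MKL1, MKL2 and ACTB, up to 4 called genes per list and direction, and the 2 largest differences per list that did not pass. Promoter coordinates are of GRCh38.p14, another build than that of the counts. A planned gene list and 1 gene that this rule picks are not reported here.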

Additional observations from a re-analysis of the deposited data

How the results depend on the processing

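The count of called members was 0 under 14 of 15 alternatives and 3 with library quality weights. All tested members kept their direction under every alternative except TPM1 and TPM2. TPM1 turned to -0.0014 with DESeq2 size factors, -0.0040 without a filter, -0.0023 with a mean count of at least 50, -0.0013 with DESeq2 and -0.0125 with the GC trend removed. When each library was left out in turn, TPM1 ranged from -0.12 to 0.12 and TPM2 from -0.11 to 0.00035, and the general stress fibre median from -0.11 to 0.00035. The 434 calls over all genes became 831 without a filter, 694 with the GC trend removed, 2606 with quality weights and 99 to 2496 with 1 library left out (99 without inhibitor 2, 2496 without DMSO 3). With library totals alone, 336 genes were called higher and 163 lower (67.3% higher in place of 50.5%), and the median of all genes moved from -0.0044 to 0.06. Other actin and stress fibre genes called, 0 with all libraries, were 2 without a filter, 1 with DESeq2, 6 with quality weights (against 5.32%, 5.3% and 23.2% of all genes tested) and 0 to 10 with 1 library left out. The SRF and MRTF list, with 2 calls when all libraries were kept, had 0 to 4 calls with 1 library left out. It had 0 without inhibitor 1, 2 or 3, each a fit with fewer calls over all genes than the 434. Of its 7 tested genes, 4 were called without DMSO 3 (against 21.9% of all tested genes) and 3 with quality weights (against 23.2%). The cause of these changes was not tested.

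Replicate numbers are shared between groups, but same-numbered libraries did not deviate together (correlations -0.041, -0.038 and -0.088 for numbers 1 to 3), and none correlated best with its own number. With a replicate block 327 genes and 0 members were called. CNN1 did not pass the filter on low counts. The intervals printed for the other members rest on 3 libraries a group and on variances that edgeR estimates partly from all tested genes.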
